A study of Mus musculus with 14 samples.

Results

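The 8 mouse genes named as cyclin-dependent kinase (CDK) inhibitors, Cdkn1a, Cdkn1b, Cdkn1c, Cdkn2a, Cdkn2b, Cdkn2c, Cdkn2d and Cdkn3, were followed through treatment and relapse of a mutant IDH1 leukemia in mice. They were chosen by symbol, matched through Ensembl identifiers, and each of the 8 had a row among the 52636 genes counted. RNA was taken from sorted I1DN leukemic progenitors, positive for cKit and negative for CD11b, of 14 mice. Vehicle was given for 5 days to 3 mice and for 14 days to 2 mice, AG120, an inhibitor of mutant IDH1, was given for 5 days to 3 mice and for 14 days to 2 mice, and 4 mice had relapsed after 28 days of AG120. The vehicle, AG120 and relapse mice all carried transplanted I1DN leukemia, and the same gate was used for each of them, so there was no group without leukemia. The labels do not spell out I1DN, give no strain or age, and do not say whether AG120 was still present when relapsed mice were sampled. Cells were sorted per mouse, so each library was taken as 1 mouse.

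CDK inhibitors hold back the kinases that drive cells through the division cycle. The INK4 proteins, encoded by Cdkn2a, Cdkn2b, Cdkn2c and Cdkn2d, bind CDK4 and CDK6 and keep D-type cyclins from activating them, so that RB stays on its E2F partners. The CIP/KIP proteins p21 (Cdkn1a), p27 (Cdkn1b) and p57 (Cdkn1c) bind whole cyclin-CDK complexes, CDK2 complexes above all. Cdkn2a also encodes ARF, which binds MDM2 and so stabilises p53, and p53 in turn drives Cdkn1a. Cdkn3 is a phosphatase that acts on CDK2 and belongs to neither family. In blood formation these genes are known for limiting the division of stem and progenitor cells and for cell cycle exit as cells mature.

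The members lie on 6 chromosomes of GRCm38, the assembly of mm10. Cdkn2a (4:89274471-89294653), Cdkn2b (4:89306299-89311039) and Cdkn2c (4:109660876-109667189) share chromosome 4, the first pair side by side and all on the minus strand. Cdkn1a lies at 17:29090976-29100727, Cdkn1b at 6:134920401-134925513 and Cdkn3 at 14:46760541-46771669, each on the plus strand. Cdkn1c lies at 7:143458339-143461050 and Cdkn2d at 9:21288410-21291407, both on the minus strand.

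Promoter windows are shown for the genes on which the results turn, Cdkn1a, Cdkn1b and Cdkn2d, which moved together, and Cdkn2a, with Cdkn2c as a member of the same family that did not move with them. Each is the 250 bases before a RefSeq start site (GRCm38.p6), 5′ to 3′ on the gene's strand, and Cdkn1a, Cdkn2a and Cdkn2c have 2 starts each. RefSeq gave 10 such windows for 7 of the 8 members and none for Cdkn1c. Of the Cdkn2c windows only the one with GC boxes is shown, since the other, at chr4:109665373-109665622, held none of the motifs searched. Capitals mark matches, on either strand, to the GC box GGGCGG, the CCAAT box, the E-box CACGTG, the GATA motif AGATAA or a p53 half-site.
Cdkn1a chr17:29090729-29090978 (plus strand): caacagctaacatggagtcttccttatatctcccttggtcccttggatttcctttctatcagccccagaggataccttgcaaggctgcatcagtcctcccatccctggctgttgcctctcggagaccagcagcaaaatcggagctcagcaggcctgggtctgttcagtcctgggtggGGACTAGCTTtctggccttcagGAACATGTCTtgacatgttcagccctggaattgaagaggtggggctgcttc
Cdkn1a chr17:29093519-29093768 (plus strand): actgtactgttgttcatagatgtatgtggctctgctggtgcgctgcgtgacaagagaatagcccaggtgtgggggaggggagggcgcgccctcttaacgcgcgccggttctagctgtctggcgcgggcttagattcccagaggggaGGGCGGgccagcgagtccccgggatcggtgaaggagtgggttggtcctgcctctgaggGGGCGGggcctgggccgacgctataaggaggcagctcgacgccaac
Cdkn1b chr6:134920151-134920400 (plus strand): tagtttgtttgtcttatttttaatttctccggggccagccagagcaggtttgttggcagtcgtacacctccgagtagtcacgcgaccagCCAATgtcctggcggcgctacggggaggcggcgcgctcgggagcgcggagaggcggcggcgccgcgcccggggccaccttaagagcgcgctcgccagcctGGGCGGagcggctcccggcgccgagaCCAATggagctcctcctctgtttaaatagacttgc
Cdkn2d chr9:21291210-21291459 (minus strand): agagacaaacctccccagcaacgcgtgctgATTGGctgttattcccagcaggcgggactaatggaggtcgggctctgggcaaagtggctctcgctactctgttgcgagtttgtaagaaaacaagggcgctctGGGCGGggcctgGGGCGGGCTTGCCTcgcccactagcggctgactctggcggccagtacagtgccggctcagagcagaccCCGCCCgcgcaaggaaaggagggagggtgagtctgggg
Cdkn2a chr4:89282193-89282442 (minus strand): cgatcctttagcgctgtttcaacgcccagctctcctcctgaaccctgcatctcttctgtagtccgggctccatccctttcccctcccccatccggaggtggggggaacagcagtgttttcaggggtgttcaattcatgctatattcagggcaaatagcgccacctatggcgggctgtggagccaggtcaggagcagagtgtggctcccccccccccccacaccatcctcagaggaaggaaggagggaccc
Cdkn2a chr4:89294620-89294869 (minus strand): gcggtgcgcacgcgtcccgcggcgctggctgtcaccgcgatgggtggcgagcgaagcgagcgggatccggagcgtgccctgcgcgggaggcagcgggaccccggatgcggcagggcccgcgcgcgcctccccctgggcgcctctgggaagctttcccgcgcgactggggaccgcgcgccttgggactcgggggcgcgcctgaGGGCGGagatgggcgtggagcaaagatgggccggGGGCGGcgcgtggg
Cdkn2c chr4:109666757-109667006 (minus strand): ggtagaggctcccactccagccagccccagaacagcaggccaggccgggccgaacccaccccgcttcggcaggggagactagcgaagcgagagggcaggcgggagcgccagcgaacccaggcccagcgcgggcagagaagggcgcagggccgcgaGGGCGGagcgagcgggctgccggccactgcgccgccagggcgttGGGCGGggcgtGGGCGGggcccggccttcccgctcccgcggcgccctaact
The GC box was found in at least 1 window of Cdkn1a, Cdkn1b, Cdkn2a, Cdkn2c, Cdkn2d and Cdkn3, so members that fell on AG120 and members that did not pass the test both had it. The other window of Cdkn1a, of Cdkn2a and of Cdkn2c, and the Cdkn2b window, had no GC box. Over all 32851 windows of this length 32.7% had it, which is a share by window and not by gene. The upstream Cdkn1a window held 2 p53 half-sites and no GC box, and the Cdkn2d window held 1 half-site that overlaps a GC box, against 7.13% of all windows with any. The CCAAT box stood in the windows of Cdkn1b (2), Cdkn2d (1) and Cdkn3 (3), and in 33.8% of all windows. Neither the E-box (6.02% of all windows) nor the GATA motif (9.99%) was found in any of the 10. These matches describe letters in the windows, with no measurement of binding.

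Levels are given as CPM, a gene's count scaled to the library's total count and its TMM factor. Total counts were 4995738 to 8691708 per library, of which 50.9% to 74.8% fell on ribosomal RNA models, so that 1259982 to 3358874 counts remained. The ribosomal share differed between the groups. It was 50.9% to 59.8% in vehicle day 5 and 62.5% to 65.3% in AG120 day 5, without overlap. On day 14 it was 55.8% and 68.1% in vehicle and 63.1% and 74.8% in AG120, and in relapse 60.6% to 66.1%. A count of 3 in a library, the most that a count of 0 allows, corresponded to 0.329 to 0.894 CPM, for counting error only. AG120 day 14 replicate 1 had the fewest remaining counts. Changes were tested with edgeR's quasi-likelihood test over 11994 genes, and a gene was called at an adjusted p below 0.05. That test gives no standard error. The SE printed with a change is its absolute log2 value divided by the square root of the test's F statistic.

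Of the 8 members, 6 passed the filter on low counts. Cdkn1c (p57) had 0 to 6 counts per library, 33 in all 14, and never exceeded 0.662 CPM. Cdkn2b (p15) had 1 count in all 14 libraries together, in relapse replicate 3. Neither was tested. Cdkn2a passed the filter only through the relapse libraries, so its difference there was a condition of its being tested at all.

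In vehicle, Cdkn2d (p19INK4d) was the highest member, at 68.2 ± 7.77 CPM (SD, n = 3) on day 5 and 72.5 ± 3.17 (n = 2) on day 14. Cdkn1b (p27) followed at 32.0 ± 6.30 and 31.3 ± 1.38 CPM. Cdkn1a (p21) at 13.3 ± 2.65 and 15 ± 3.6 CPM and Cdkn2c (p18) at 12.4 ± 0.572 and 13.4 ± 4.26 CPM did not differ beyond their spread. Cdkn3 followed at 2.83 ± 0.349 and 3.46 ± 0.762 CPM, and Cdkn2a at 0.329 to 1.17 CPM was within a few counts of 0. QuantSeq reads each transcript once, near its 3′ end, whatever its length, so levels of different genes can be set side by side on the CPM scale.

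**Figure D1:**
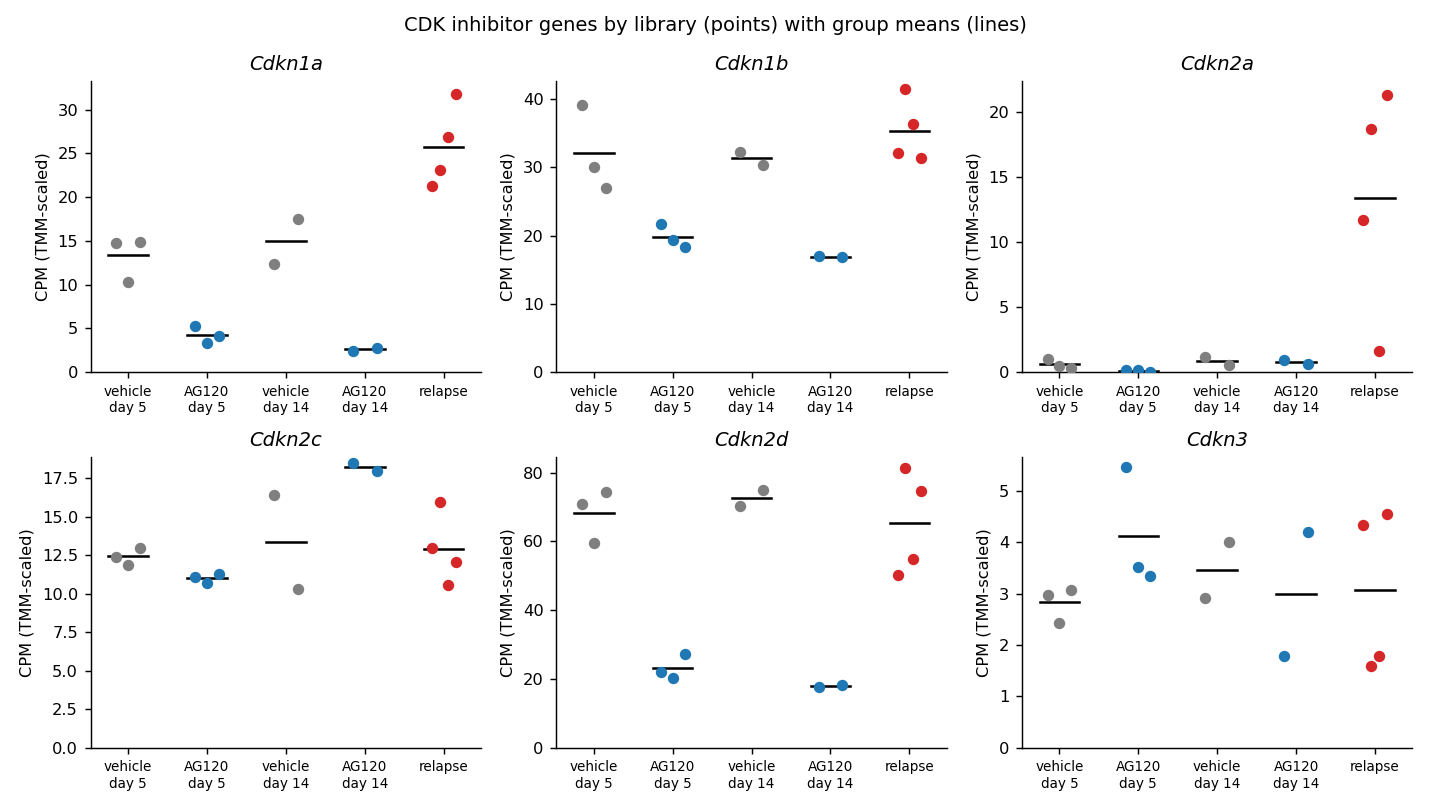
CPM of the 6 tested members in each library (y axis, TMM-scaled, from 0) by group (x axis). Points are libraries and black lines group means. Cdkn1a, Cdkn1b and Cdkn2d sit lower in each AG120 library than in each vehicle and relapse library, and Cdkn2a is high in relapse replicates 1, 2 and 4.

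On AG120, the RNA of Cdkn1a, Cdkn1b and Cdkn2d fell by day 5 and was low at day 14, while Cdkn2c and Cdkn3 did not pass the test at either time. These 3 are p21 and p27, the 2 CIP/KIP members that could be tested, and p19INK4d, the INK4 member with the highest CPM. The fall was near 3-fold for Cdkn1a (3.09) and Cdkn2d (2.94) on day 5 and smaller for Cdkn1b (1.61). Since RNA was measured in bulk, fewer cells expressing a gene and less of its RNA per cell cannot be told apart. For the members' 3 of 6 called lower, the background is 19.3% of the 11994 genes lower (39.5% in either direction) on day 5 and 17.9% lower (34.7% in either direction) on day 14.

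Cdkn1a measured 14.8, 10.3 and 14.9 CPM in vehicle day 5 and 5.32, 3.35 and 4.14 CPM in AG120 day 5. On day 14 its levels were 12.4 and 17.5 CPM in vehicle against 2.38 and 2.80 CPM in AG120, the latter from 8 and 14 counts. Each AG120 library was below each vehicle library, with the lowest values on day 14. The log2 fold change was -1.63 ± 0.23 (SE) on day 5 (adjusted p 4.44e-05, edgeR) and -2.51 ± 0.34 on day 14 (adjusted p 2.45e-05). Relative to the vehicle mean of the same day, 25.1% to 39.9% of the Cdkn1a level was left on day 5 and 15.9% to 18.7% on day 14.

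Cdkn1b, whose protein p27 is also set by its degradation, measured 39.1, 30.0 and 27.0 CPM in vehicle day 5 and 21.7, 19.3 and 18.3 CPM in AG120 day 5. On day 14 it measured 32.3 and 30.3 CPM in vehicle and 17.0 and 16.8 CPM in AG120. The groups did not overlap, although the gap was narrow on day 5, where the highest AG120 library had 21.7 and the lowest vehicle library 27.0 CPM. The log2 fold change of Cdkn1b was -0.69 ± 0.15 on day 5 (adjusted p 0.00205, edgeR) and -0.89 ± 0.20 on day 14 (adjusted p 0.0024, a 1.85-fold fall).

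Cdkn2d measured 70.8, 59.5 and 74.3 CPM in vehicle day 5 and 21.9, 20.3 and 27.3 CPM in AG120 day 5. On day 14 it measured 70.3 and 74.8 CPM in vehicle against 17.6 and 18.2 CPM in AG120. It had the widest gap in CPM between the groups of any member, with no overlap. The log2 fold change was -1.56 ± 0.18 on day 5 (adjusted p 3.99e-06, edgeR) and -2.02 ± 0.23 on day 14 (adjusted p 4.5e-06, a 4.05-fold fall).

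Cdkn2c, the INK4 gene for p18, measured 12.4, 11.9 and 13 CPM in vehicle day 5 and 11.1, 10.7 and 11.3 CPM in AG120 day 5. On day 14 it measured 16.4 and 10.3 CPM in vehicle and 18.5 and 18.0 CPM in AG120. The AG120 libraries lay just below vehicle on day 5 and above it on day 14, without overlap in either case, and neither difference passed (log2 -0.17 ± 0.18, adjusted p 0.485, and 0.45 ± 0.22, adjusted p 0.131, edgeR). The day 14 value rested on vehicle day 14 replicate 1, without which it was 0.81 with an adjusted p of 0.0302.

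Cdkn3, a gene whose RNA cycles with division, measured 2.98, 2.43 and 3.07 CPM in vehicle day 5 and 5.47, 3.52 and 3.35 CPM in AG120 day 5. It measured 2.92 and 4.00 CPM in vehicle day 14 and 1.79 and 4.19 CPM in AG120 day 14, so the groups overlapped on day 14. Neither difference passed (log2 0.55 ± 0.39, adjusted p 0.282, and -0.15 ± 0.52, adjusted p 0.854, edgeR), at 6 to 36 counts per library.

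Cdkn2a had 7, 4 and 3 counts in vehicle day 5, 1, 1 and 0 in AG120 day 5, 8 and 4 in vehicle day 14, and 3 and 3 in AG120 day 14. These are near the limit of detection, and no difference passed (adjusted p 0.341 on day 5 and 0.924 on day 14, edgeR). The ratio of summed, depth-scaled counts was 0.192 on day 5, with a 95% counting interval of 0.0211 to 0.834, and 0.843 (0.26 to 2.43) on day 14.

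By non-overlap of libraries, 5 of the 6 tested members were lower in each AG120 day 5 library than in each vehicle day 5 library. They were Cdkn1a, Cdkn1b, Cdkn2a, Cdkn2c and Cdkn2d, against 29.8% of all tested genes. Of these, Cdkn2a was near the limit of detection and tested only through its relapse counts, and Cdkn2c lay just below vehicle. Neither Cdkn2a nor Cdkn2c was called on day 5. On day 14 it was 3 members (Cdkn1a, Cdkn1b and Cdkn2d), against 36.3% of all genes. The same 3 were lower in all 5 AG120 libraries than in all 5 vehicle libraries, against 20.5% of all genes.

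**Figure D2:**
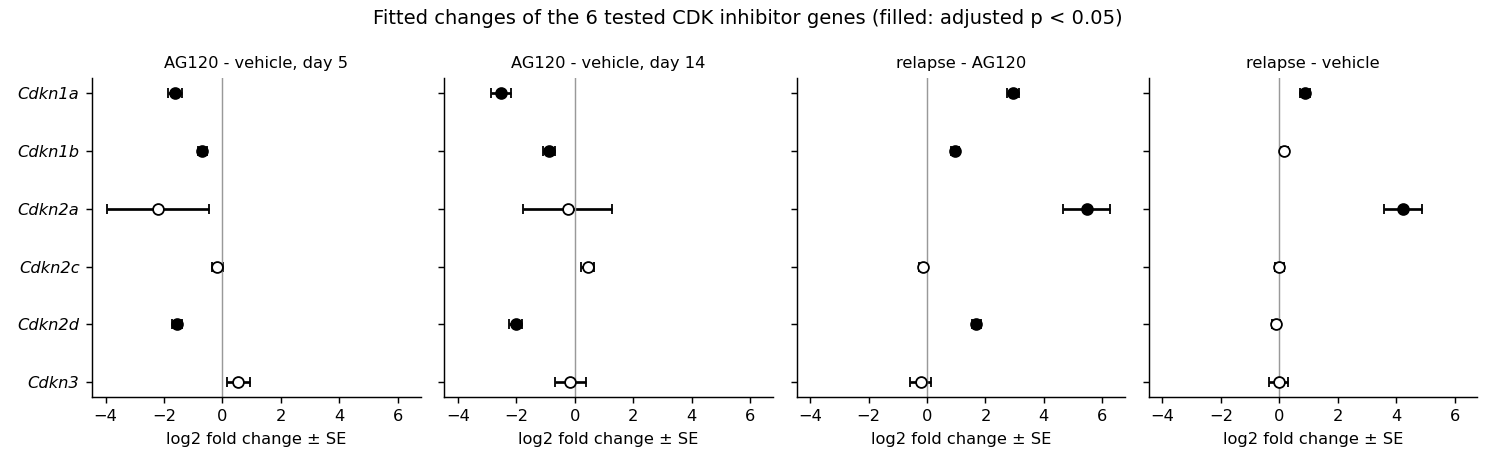
Fitted log2 fold changes (x axis) with standard errors (bars) of the 6 tested members (y axis) in 4 comparisons, filled where the adjusted p was below 0.05. Cdkn1a, Cdkn1b and Cdkn2d lie left of 0 on AG120 at both times and right of 0 in relapse against AG120, while Cdkn2c and Cdkn3 stay near 0 with open symbols.

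The AG120 effect was larger on day 14 than on day 5 in point estimate for Cdkn1a (-0.88 ± 0.43, adjusted p 0.418), Cdkn2d (-0.46 ± 0.29, adjusted p 0.571) and Cdkn1b (-0.20 ± 0.25, adjusted p 0.823), on the log2 scale in edgeR's test of the difference. None of the 6 tested members was called, against 0.934% of all genes (0.725% lower). Cdkn2c was the one member with an unadjusted p below 0.05 (0.62 ± 0.29, p 0.0466, adjusted p 0.399), and DESeq2 called none. A further step between day 5 and day 14 was therefore not detectable for any tested member. Vehicle mice sampled on day 14 and day 5 did not differ in any tested member either: edgeR called 0 of 11994 genes (574 at an unadjusted p below 0.05, and 0 by DESeq2).

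In relapse, Cdkn1a, Cdkn1b and Cdkn2d were higher than on AG120, and Cdkn1a was also higher than in vehicle. All vehicle libraries came from shorter treatments than the relapse libraries, with no vehicle group matched to relapse in time. The part of time in the differences between relapse and vehicle, for Cdkn1a and Cdkn2a as for the other members, was not tested. Cdkn2a, which had 0 to 8 counts in each vehicle and AG120 library, had 12 to 178 counts in relapse, the libraries through which it passed the filter. Relapse libraries were compared first with the 5 AG120 libraries and then with the 5 vehicle libraries, which are the same libraries that entered the AG120 comparisons. The changes on AG120 and in relapse therefore share samples, and only each comparison's own values are given. Against AG120, Cdkn1a, Cdkn1b and Cdkn2d rose, as did Cdkn2a, from whose call nothing is read because of the filter, while 27.9% of the 11994 genes were called higher and 54% in either direction.

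Cdkn1a measured 21.3, 23.1, 26.9 and 31.8 CPM in the 4 relapse libraries. Each was above the highest AG120 library (5.32 CPM) and above the highest vehicle library (17.5 CPM). The log2 fold change was 2.94 ± 0.20 against AG120 (adjusted p 4.14e-09, edgeR, 7.69-fold) and 0.88 ± 0.16 against vehicle (adjusted p 0.0327, 1.84-fold). Single libraries decided the call against vehicle. The adjusted p for Cdkn1a was 0.0741 without relapse replicate 4, 0.193 and 0.0734 without vehicle day 14 replicates 1 and 2, and 0.0614, 0.0945 and 0.065 without vehicle day 5 replicates 1, 2 and 3. The Cdkn1a log2 value stayed between 0.76 and 1.01 with any 1 of the 9 libraries left out, and with only these groups in the fit it was 0.88 with an adjusted p of 0.135.

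Cdkn1b measured 32.1, 41.4, 36.4 and 31.3 CPM in relapse, all above the AG120 libraries and overlapping vehicle. It rose 1.93-fold against AG120 (log2 0.95 ± 0.13, adjusted p 1.41e-05, edgeR), and its difference from vehicle did not pass (0.16 ± 0.12, adjusted p 0.663). Cdkn2d measured 50.2, 81.4, 54.8 and 74.6 CPM, above all AG120 libraries and on both sides of vehicle, with replicates 2 and 4 high and replicates 1 and 3 low. It rose 3.21-fold against AG120 (1.68 ± 0.15, adjusted p 9.95e-08), and its difference from vehicle did not pass (-0.11 ± 0.14, adjusted p 0.812). The relapse levels were 98.6% to 130% of the vehicle mean for Cdkn1b and 71.8% to 116% for Cdkn2d.

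Cdkn2a, the gene of p16INK4a and ARF, had 62, 105, 12 and 178 counts in the 4 relapse libraries, or 11.7, 18.7, 1.65 and 21.3 CPM. Replicates 1, 2 and 4 were high, and replicate 3 was only slightly above the highest vehicle library (1.17 CPM). No other library exceeded 8 counts. The fitted log2 fold change was 4.23 ± 0.65 against vehicle (adjusted p 0.0245, edgeR) and 5.46 ± 0.81 against AG120 (adjusted p 0.000128), and since the other groups are near 0 these sizes depend on the fit's prior count. The ratio of summed, depth-scaled Cdkn2a counts was 20.3 against vehicle, with a 95% counting interval of 13.6 to 31.5 that leaves out the spread between mice, and 45.6 (22.9 to 107) against AG120. The call of Cdkn2a against vehicle was also lost without vehicle day 14 replicate 1 (adjusted p 0.136) or 2 (0.243), without vehicle day 5 replicate 1 (0.0512), 2 (0.0846) or 3 (0.0699), and with only these groups in the fit (0.154). Its log2 value ranged from 3.89 to 4.61 over the 9 libraries left out.

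The 2 coding transcripts of Cdkn2a, for p16INK4a and for ARF, share positions 89274541 to 89274774 of their last exon on chromosome 4. The last exon of Cdkn2a-201 runs on to 89274471 at its 3′ end. QuantSeq reads fall near the 3′ end and were counted per gene. The counts therefore do not say which of the 2 rose. Its upstream neighbour Cdkn2b had a single count in relapse, in replicate 3, where Cdkn2a was lowest.

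Cdkn2c measured 13, 16.0, 10.6 and 12.1 CPM in relapse, all within the vehicle range of 10.3 to 16.4 CPM. Its difference did not pass against vehicle (0.00 ± 0.15, adjusted p 0.995, edgeR) or AG120 (-0.14 ± 0.15, adjusted p 0.45). Cdkn3 measured 4.34, 1.6, 1.78 and 4.55 CPM, with replicates 1 and 4 high and replicates 2 and 3 low, and passed against neither vehicle (-0.02 ± 0.33, adjusted p 0.991) nor AG120 (-0.22 ± 0.35, adjusted p 0.618).

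Only 0.1% of the 11994 genes (12) were called higher in relapse than in vehicle, with Cdkn1a among them, and 0.0834% were called lower, with no member among them (0.183% in either direction). Cdkn1a was also higher in each relapse library than in each vehicle library, as were 1.98% of all genes. Cdkn2a met both conditions too, but it was tested only because it was high in relapse, so its call is a description and is not read against these shares. No tested member was lower in each relapse library than in each vehicle library, against 1.96% of all genes. Relapse exceeded all AG120 libraries without overlap for Cdkn1a, Cdkn1b and Cdkn2d, and for Cdkn2a with the same reserve, against 18.3% of all genes. Cdkn1a, Cdkn1b and Cdkn2d had the full pattern, each AG120 library below each vehicle and each relapse library, which 15% of all genes had.

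**Figure D3:**
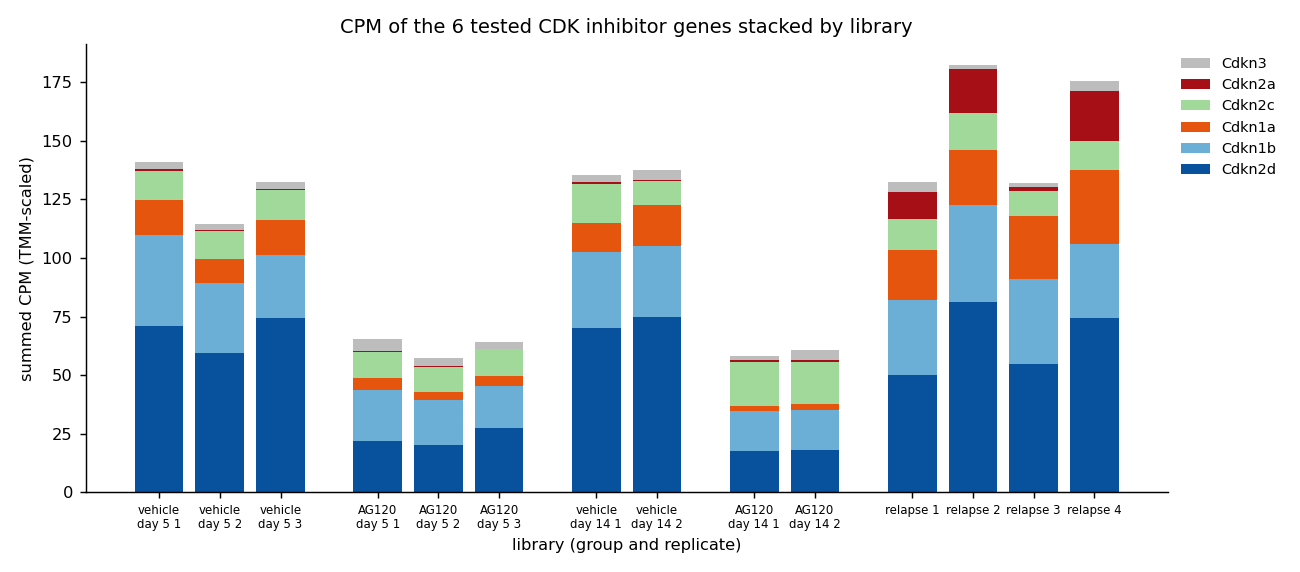
CPM of the 6 tested members stacked for each library (x axis, by group and replicate; y axis, summed CPM). With the 2 untested members, which add at most a thin line, the sums are 57.7 to 66.1 CPM on AG120 and 115 to 183 CPM in vehicle and relapse, and the Cdkn2a layer is visible in relapse.

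Summed over the 8 members, the level was 130 ± 13.3 CPM in vehicle day 5 (n = 3) and 135 and 138 CPM in vehicle day 14. It was 62.7 ± 4.44 CPM in AG120 day 5 (n = 3), 58.5 and 61.0 CPM in AG120 day 14, and 156 ± 27.0 CPM in relapse (n = 4). The make-up of the sum changed as well. Cdkn2d gave 50.1% to 55.9% of it in vehicle, 29.8% to 42.4% on AG120 and 37.7% to 44.6% in relapse. The lower share in relapse is not a lower level of Cdkn2d, whose difference from vehicle did not pass (log2 -0.11 ± 0.14, adjusted p 0.812, edgeR). Cdkn2c, whose own level did not pass a test, gave 7.46% to 12.1% in vehicle and 29.5% to 31.6% in AG120 day 14, where its 18.0 and 18.5 CPM matched Cdkn2d at 17.6 and 18.2 CPM. Cdkn1a gave 8.94% to 12.7% in vehicle, 4.07% to 8.05% on AG120 and 12.7% to 20.3% in relapse. Cdkn2a gave 1.24% to 12.1% of the sum in relapse and at most 1.53% in any other library.

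Genes with the most similar profile over the 14 libraries were ranked by Pearson correlation of log2 CPM, as a description across libraries that fall into the study's groups. Cdkn1a was most like Abhd17b (r 0.975), Tpd52 (0.975) and Suco (0.969), and Cdkn1b most like Fnbp1 (0.978) and Elf1 (0.974). Cdkn2d was most like Atxn1 (0.985), Grk2 (0.98) and Myl12b (0.98). Likeness was lower for the members with few counts or little change, with Slc25a13 first for Cdkn2a (0.904), Rab6a for Cdkn2c (0.839) and the ribosomal protein gene Rpl7 for Cdkn3 (0.887).

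The genes on which the inhibitors act were read from lists of the pathway. Of 16 tested cyclins, CDKs and partners, 7 rose and 2 fell on day 5 (20.1% and 19.3% of all genes), 4 rose and 2 fell on day 14 (16.8% and 17.9%), and 2 rose and 7 fell in relapse against AG120 (27.9% and 26.1%). The list's median log2 fold change was 0.22, 0.25 and -0.25, against 0.00, -0.01 and 0.01 over all genes. With any 1 library left out, 4 to 6 rose on day 5, 1 to 4 on day 14, and 7 to 8 fell in relapse. Ccne1, the cyclin E gene whose kinase p21 and p27 inhibit, had 6.93 ± 1.03 CPM in vehicle day 5 (n = 3) and 18.1 ± 1.85 in AG120 day 5 (n = 3). It rose by 1.38 ± 0.25 on the log2 scale on day 5 (adjusted p 0.000399, edgeR) and by 2.26 ± 0.30 on day 14 (2.39e-05), and fell by 2.14 ± 0.22 in relapse against AG120 (5.19e-07). Ccnd1, the cyclin D1 gene, went the other way, from 44.4 to 49.7 CPM in vehicle day 5 to 6.23 to 7.72 CPM in AG120 day 5 (log2 -2.77 ± 0.64, adjusted p 0.00637).

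Among 17 RB and E2F family genes, the next step of the pathway, 2 rose and 3 fell on day 5, 3 rose and 1 fell on day 14, and 1 rose and 5 fell in relapse against AG120, with medians of 0.08, 0.19 and -0.15. The shares of all genes called higher and lower were 20.1% and 19.3%, 16.8% and 17.9%, and 27.9% and 26.1%, so the RB and E2F counts on AG120 lie near or below them. E2f4, which pairs with the RB relatives in resting cells, rose by 1.38 ± 0.21 on day 5 (adjusted p 8.91e-05, edgeR) and 1.65 ± 0.26 on day 14 (0.000135). It fell by 1.67 ± 0.18 in relapse against AG120 (1.18e-06). With 1 library left out, 1 to 2 fell on day 5, 0 to 1 on day 14 and 3 to 6 in relapse. None of the 17 passed in relapse against vehicle in edgeR, where only 0.183% of all genes were called. At an unadjusted p below 0.05, 0 were higher and 2 lower, and DESeq2 called 0.

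The division genes that were called mostly went in the direction opposite to Cdkn1a, Cdkn1b and Cdkn2d, but on AG120 most were not called. Of 35 mitosis genes, 20 did not pass on day 5 and 22 on day 14. Of 33 replication genes, 21 did not pass on day 5 and 20 on day 14. Over all genes, 20.1% were called higher and 19.3% lower on day 5, 16.8% and 17.9% on day 14, and 27.9% and 26.1% in relapse against AG120. Of 35 mitosis genes, 15 rose and 0 fell on day 5 and 13 rose and 0 fell on day 14 (edgeR; 0 lower at an unadjusted p below 0.05 and 0 by DESeq2 at both times), while 1 rose and 21 fell in relapse against AG120. Their medians were 0.36, 0.44 and -0.36 on the log2 scale. With 1 library left out, 11 to 13 rose on day 5, 6 to 7 on day 14, and 13 to 24 fell in relapse. Of 33 replication genes, 11 rose and 1 fell on day 5, 12 rose and 1 fell on day 14, and 1 rose and 26 fell in relapse against AG120, with 6 to 9, 6 to 9 and 22 to 27 of these larger counts when 1 library was left out. The member Cdkn3 did not pass with them. Cdc6, which loads the replicative helicase, rose by 0.93 ± 0.18 on day 5 (adjusted p 0.000613, edgeR), and Hmmr, a spindle gene, by 0.92 ± 0.15 (0.000149). Rfc2, a clamp loader subunit, was the replication gene that fell on day 5 (-1.95 ± 0.18, 6.03e-07). Cyclin B, CDK1 and Pcna genes stand in more than 1 of these lists.

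Of 18 genes that act in the degradation of CDK inhibitor proteins, 8 rose and 1 fell on day 5, 7 rose and 1 fell on day 14, and 2 rose and 11 fell in relapse against AG120, with medians of 0.30, 0.29 and -0.36. Over all genes the shares called higher and lower were 20.1% and 19.3%, 16.8% and 17.9%, and 27.9% and 26.1%. With 1 library left out, 5 to 7 rose on day 5, 3 to 5 on day 14, and 7 to 11 fell in relapse. Cul4a, the scaffold of a ubiquitin ligase that targets p21 and p27, had 20.5 to 22.5 CPM in vehicle day 5, 66.0 to 71.6 in AG120 day 5 and 15.6 to 25.7 in relapse. It rose by 1.69 ± 0.15 on day 5 (adjusted p 1.81e-07, edgeR) and fell by 1.69 ± 0.13 in relapse against AG120 (9.81e-09). Ubac1, a subunit of a ligase for p27, rose by 1.10 ± 0.16 on day 5 (3.95e-05) and by 2.18 ± 0.19 on day 14 (2.62e-07). Protein was not measured.

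Targets of p53, the factor that drives Cdkn1a, were called on AG120 in 44.4% of cases on day 5 and 48.1% on day 14, against 39.5% and 34.7% of all genes. Of 27 p53 target genes other than Cdkn1a, 6 rose and 6 fell on day 5, 6 rose and 7 fell on day 14, and 13 rose and 5 fell in relapse against AG120, with medians of -0.14, -0.77 and 0.46, against 20.1% higher and 19.3% lower, 16.8% and 17.9%, and 27.9% and 26.1% of all genes. Perp, a membrane protein gene, fell like Cdkn1a (-2.24 ± 0.28 on day 5, adjusted p 1.44e-05, and -4.29 ± 0.45 on day 14, 3.16e-06, edgeR), and Sesn1, a stress gene, fell by 1.08 ± 0.19 on day 5 (0.000332). Ccng1, the cyclin G1 gene, rose by 0.95 ± 0.21 on day 5 (0.0018). Trp53 itself had 27.2 to 31.9 CPM in vehicle day 5, 47.4 to 49.1 in AG120 day 5 and 23.3 to 28.8 in relapse, and fell by 0.69 ± 0.11 in relapse against AG120 (4.64e-05). With 1 library left out, 3 to 5 rose and 4 to 5 fell on day 5, 3 to 5 rose and 4 to 6 fell on day 14, and 12 to 13 rose in relapse against AG120. None of the 27 was called in relapse against vehicle by edgeR, where only 0.183% of all genes were called. At an unadjusted p below 0.05, 8 were higher and 4 lower, and DESeq2 called 0. With no filter on low counts edgeR called 2 higher and 1 lower, and without relapse replicate 2 or 3 it called 1 higher.

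Of 41 transcription factors and cofactors known to act on these genes, 6 rose and 12 fell on day 5, 3 rose and 10 fell on day 14, and 15 rose and 6 fell in relapse against AG120, with medians of -0.12, -0.40 and 0.33. Over all genes the shares called higher and lower were 20.1% and 19.3%, 16.8% and 17.9%, and 27.9% and 26.1%. With 1 library left out, 8 to 11 fell on day 5, 7 to 9 on day 14, and 12 to 17 rose in relapse, and in a fit holding just the compared groups 17 fell on day 14. Spi1, the myeloid factor PU.1, fell from 25.9 to 33.8 CPM in vehicle day 5 to 5.26 to 6.71 in AG120 day 5 (log2 -2.29 ± 0.23, adjusted p 1.22e-06, edgeR), and had 32.9 to 60.3 CPM in relapse. Gata1, the erythroid factor, rose by 1.92 ± 0.41 on day 5 (0.00295). Myc, which represses Cdkn1a and other members, rose by 1.4 ± 0.22 on day 5 (8.67e-05), but on day 14 no AG120 library lay above vehicle. Its AG120 effect differed between the days by -1.74 ± 0.35 (adjusted p 0.0274, edgeR), a call that depended on single libraries. Myc levels are given further below, and the part of Myc in the level of Cdkn1a was not tested.

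**Figure D4:**
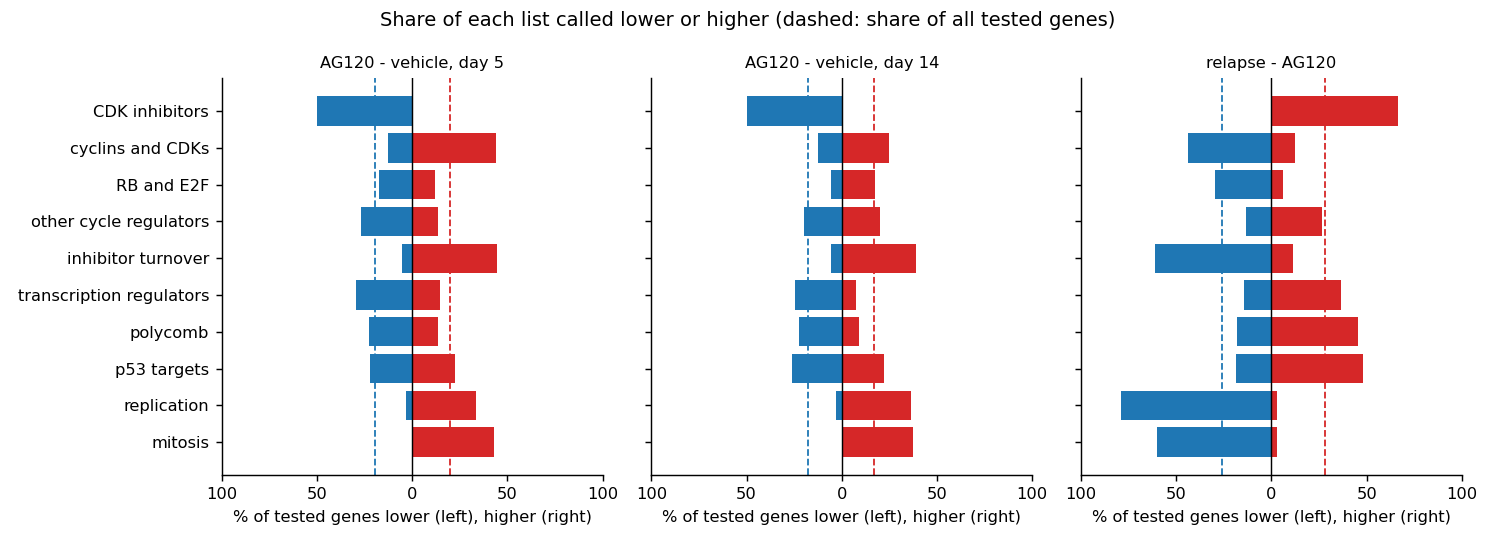
Share of the tested genes of each list (rows) called lower (blue, to the left) or higher (red, to the right) in 3 comparisons, with dashed lines for the share of all tested genes. The division, replication and turnover lists have their longer bar on the side opposite to the CDK inhibitors in each panel. The relapse bar of the CDK inhibitors includes Cdkn2a, which the filter kept for its relapse counts.

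Markers of cell types also differed between the groups, and the lists did not all follow the same course. Among 19 erythroid markers, 13 rose on day 5 and 16 on day 14 (20.1% and 16.8% of all genes), and their summed level was 136 to 225 CPM in vehicle, 995 to 1160 after 5 days of AG120, 2510 to 2830 after 14 days and 85.9 to 536 in relapse. Of 8 tested stem and progenitor markers, 6 fell on day 5 and 7 on day 14 (19.3% and 17.9% of all genes), and the summed level of the 14 listed was 446 to 476 CPM in vehicle, 46.7 to 104 on AG120 and 353 to 628 in relapse. Megakaryocyte markers summed to 384 to 483 CPM in vehicle, 50.7 to 114 on AG120 and 159 to 554 in relapse. Neutrophil markers summed to 1230 to 2090 CPM in vehicle, 471 to 512 after 5 days of AG120, 1470 to 1870 after 14 days and 716 to 2750 in relapse, and monocyte markers to 92.8 to 122, 19.5 to 22.3, 55.1 to 72.5 and 86.9 to 243 CPM. Mast cell and basophil markers summed to 177 to 213, 46.7 to 104 and 106 to 162 CPM in vehicle, AG120 and relapse, T and NK cell markers to 36.9 to 45.4, 7.39 to 12.2 and 31.1 to 40.2, stromal and endothelial markers to 147 to 162, 18.2 to 40.1 and 162 to 207, and B cell markers to at most 3.96 CPM in any library. Only 2 of the 10 T and NK cell markers and 2 of the 10 stromal and endothelial markers passed the filter, and their sums were carried mainly by Nkg7 (36.0 to 44.8 CPM in vehicle day 5) and by Pecam1 (97.2 to 107) and Vim (42.8 to 55.7), while 8 and 7 of the 10 listed genes stayed below 1 CPM in every library. In relapse against vehicle edgeR called no marker of any list, where only 0.183% of all genes were called. DESeq2 called 1 mast cell or basophil marker lower, and at an unadjusted p below 0.05 each list had 0 to 2 higher and 0 to 3 lower. Leaving out 1 library gave up to 6 erythroid, 7 neutrophil, 2 mast cell or basophil and 2 megakaryocyte markers called lower, and up to 1 neutrophil and 1 stromal marker called higher. The part of this shift in cell type markers in the levels of Cdkn1a, Cdkn1b, Cdkn2d and Cdkn2a was not tested.

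The gate was checked against its own genes. Kit had 35.6 ± 2.15 CPM in vehicle day 5 (n = 3), 26.9 ± 5.34 in AG120 day 5 (n = 3), 11.6 in each AG120 day 14 library and 18.9 to 51.9 in relapse. Itgam, the gene of CD11b, had 10.5 to 18.0 CPM in vehicle, 2.55 to 7.99 on AG120 and 13.9 to 53.4 in relapse. Cd3d, Cd3e, Cd3g, Cd4, Cd8a, Cd79a, Pax5, Cdh5 and Col1a1, which define T cells, B cells, endothelium and stroma, were below 1 CPM in each library, and the mast cell gene Cma1 was at 0 in all.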

How the data were processed

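Libraries of sorted progenitors, 1 per mouse, were made with QuantSeq 3′ chemistry, per the labels' protocols. Raw counts for 52636 Ensembl identifiers are what the authors deposited. Per the submitters' processing notes, the build was mm10 and the tools included HISAT2 2.1.0, cutadapt 1.14, bcl2fastq 2.17.1.14, featureCounts of Subread 1.6.3, and edgeR 3.28.1 and limma 3.42.2 in R 3.6.2. Not given in the sources used here are the annotation, the use of strand and of molecular identifiers, and the treatment of reads that match several places. Without strand, reads of an antisense model over the 5′ part of Cdkn1a, and of Gm44732 over Cdkn1c (1 count in all), cannot be told from theirs.

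Symbols and positions came from GENCODE on GRCm38, which named 52403 identifiers, and promoter windows from RefSeq on GRCm38.p6. Counts were tested in R 4.3.3 with edgeR 4.0.16 (limma 3.58.1): filterByExpr by group with a minimum count of 10, TMM factors of 0.672 to 1.33, and 1 coefficient per group over all 14 libraries. The common dispersion was 0.0291 with 9 residual degrees of freedom, and p-values were adjusted by Benjamini-Hochberg over 11994 genes. Log2 CPM used a prior count of 2. Relapse was compared with the mean of the vehicle groups and of the AG120 groups. No 2 libraries of a group agreed within sampling noise (chi-square over degrees of freedom 1.88 to 21.5). The fit was tested on simulated data.

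The members, lists and tests were chosen with earlier results of these data known. All 8 members are named, and from each list up to 2 genes per direction with the largest change among those called with a mean log2 CPM of at least 3. For each tested member, the most correlated genes of that level are named, except where one is not reported here. Trp53 in vehicle and AG120, and Kit and Itgam, were added as levels after their values were seen. The alternatives were DESeq2's size factors in edgeR, DESeq2 1.42.0, no filter on low counts, ribosomal RNA models removed, only the groups compared in the fit, the replicate number as a block, and each library left out.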

Additional observations from a re-analysis of the deposited data

Results flagged for a closer look

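In relapse, Cdkn2b had 1 count in replicate 3 and 0 in the other libraries, so the gap between the highest library and the rest spanned the whole range (ratio 1). Among the 8 members it was the only one with such a gap in the 4 relapse libraries. With 1 count in 1 library and 0 in the rest the ratio can only be 1, so the flag was fixed in advance. The rate of about 1 group in 20 flagged by chance does not hold for such counts. A single count carries no weight as a level.

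For 5 genes of the pathway lists, the AG120 effect differed between day 14 and day 5 in edgeR's test of the difference. They were 1 each of 16 tested cyclins, CDKs and partners, 17 RB and E2F genes, 18 turnover genes, 41 transcription regulators and 27 p53 targets. The polycomb, replication, mitosis and other regulator lists had 0. Over all 11994 genes, 0.934% were called in this test. E2f2, an E2F factor, changed by 1.74 more on the log2 scale on day 14 (adjusted p 0.0157), with 8.45 to 8.97 CPM in AG120 day 5 and 21.8 to 22.9 in AG120 day 14, against 5.37 to 8.24 in vehicle. Leaving out any 1 of the day 14 libraries ended the E2f2 call: adjusted p was 0.0803 and 0.068 for AG120 replicates 1 and 2, and 0.0823 and 0.0819 for vehicle replicates 1 and 2.

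Myc differed by -1.74 (adjusted p 0.0274). It had 21.0 to 30.5 CPM in AG120 day 5 and 11.4 to 15.5 in AG120 day 14, with 7.06 to 12.2 in vehicle day 5 and 16.3 to 17.1 in vehicle day 14. The Myc call was lost in 8 of the 10 fits with 1 library left out, the exceptions being AG120 day 5 replicate 1 (0.044) and vehicle day 5 replicate 1 (0.0244).

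Cdk6, a kinase that the INK4 members bind, differed by -0.90 (adjusted p 0.0446), with 385 to 405 CPM in AG120 day 5 and 193 to 214 in AG120 day 14 against 384 to 424 in vehicle. Ubac1 differed by 1.08 (adjusted p 0.0449), with 25.2 to 27.1 CPM in AG120 day 5 and 52.2 to 65.3 in AG120 day 14. Both calls, of Cdk6 and of Ubac1, were lost in each of the 10 fits with 1 library left out (adjusted p 0.0783 to 0.214 for Cdk6 and 0.0791 to 0.271 for Ubac1).

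The fifth, Pmaip1, a p53 target that promotes cell death, lies below the level set for named genes and was chosen after its values were seen. Its AG120 effect differed by -3.76 ± 0.65 (adjusted p 0.0123, edgeR), with 4.30 to 6.38 CPM in AG120 day 5 and 0.40 to 0.894 in AG120 day 14 against 3.13 to 6.28 in vehicle. No p53 target was called lower without AG120 day 14 replicate 1 or 2 or vehicle day 14 replicate 1, and 1 was in each of the other 7 fits.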

How the results depend on the processing

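The calls of Cdkn1a, Cdkn1b and Cdkn2d on AG120 at both times and in relapse against AG120 kept their direction and their side of the threshold under every alternative run. The call of Cdkn2a in relapse against AG120 was kept too, but nothing is read from it because of the filter. Over all members 440 of 470 values kept their direction and their side of the threshold, and 1060 of 1199 for the other named genes. Cdkn1a in relapse against vehicle had log2 0.88 (adjusted p 0.135) with only these groups in the fit, 0.72 (0.154) with the replicate block, and 0.76 to 1.01 with 1 library left out, where 6 of 9 fits lost the call. Cdkn2a there had 4.23 (0.154) with only these groups and 3.89 to 4.61 with 1 library left out, where 5 of 9 lost it. The number of genes called in relapse against vehicle, 22, was 267 with no filter, 101 by DESeq2 (65.3% higher, against 54.5%), 7 with only these groups, and 8 to 117 with 1 library left out. The number whose AG120 effect differed between days, 112, was 374, 176, 869 and 13 to 61 in the same order (only these groups put 41% higher, against 22.3%). Vehicle day 14 against day 5 gave 33 with no filter and 236 with only these groups, in place of 0. On day 14, 4163 became 2752 to 3003 with 1 library left out, lowest without vehicle day 14 replicate 2. Uncalled members changed sign with 1 library left out: Cdkn2a on day 14 (-0.68 to 0.37), Cdkn3 on day 14 (-0.96 to 0.27), in relapse against vehicle (-0.31 to 0.20) and against AG120 (-0.51 to 0.18), and, between vehicle days, Cdkn1a (-0.10 to 0.40), Cdkn1b (-0.14 to 0.14), Cdkn2a (-0.02 to 1.11) and Cdkn2c (-0.26 to 0.39). The causes were not tested. For the difference between days, Cdkn2a had no value with only these groups. Libraries of the same replicate number did not deviate together (correlations -0.21 to 0.11 over 23 pairs, and -0.21 to 0.25 over 54 pairs of other numbers). With 2 to 4 libraries per group this cannot exclude a pairing, and the labels do not give one. With the replicate block, 4678, 4131, 108, 17 and 6167 genes were called on day 5, on day 14, for the difference between days, in relapse against vehicle and in relapse against AG120. At 0 to 8 counts per library, depth limits Cdkn1c, Cdkn2b and, outside relapse, Cdkn2a.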

Other observations

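Polycomb group genes, whose complexes are known to silence the Cdkn2a and Cdkn2b locus, were called about as often as all genes on AG120. Of 22 tested, 3 rose and 5 fell on AG120 day 5, 2 rose and 5 fell on day 14, and 10 rose and 4 fell in relapse against AG120, with 1 to 3, 1 to 4 and 8 to 12 for the larger count when 1 library was left out. In a fit holding just the compared groups, 11 fell on day 5. Over all genes, 20.1% were called higher and 19.3% lower on day 5, 16.8% and 17.9% on day 14, and 27.9% and 26.1% in relapse against AG120. Suz12, a core subunit of the complex that methylates H3K27, had 136 to 139 CPM in vehicle day 5, 194 to 204 in AG120 day 5 and 144 to 168 in relapse (log2 0.52 ± 0.10 on day 5, adjusted p 0.000875, edgeR). None of the 22 was called in relapse against vehicle by edgeR, where only 0.183% of all genes were called. At an unadjusted p below 0.05, 1 was higher and 1 lower, and DESeq2 called 0.

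Of 15 tested other regulators of the cycle, such as Wee1, the kinase that holds CDK1 inactive, and the BTG and TOB antiproliferative genes, 2 rose and 4 fell on AG120 day 5, 3 rose and 3 fell on day 14, and 4 rose and 2 fell in relapse against AG120, with median log2 fold changes of -0.17, -0.22 and 0.24. These counts lie near the shares of all genes given for the polycomb list. With 1 library left out, 1 to 3 fell on day 5, 1 to 2 on day 14, and 3 to 5 rose in relapse.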
